A study of Ovis aries with 2 samples.

Results

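The nuclear oxidative phosphorylation genes are the subunits of the mitochondrial respiratory chain and of ATP synthase that are encoded in the cell nucleus. They were chosen by name alone, as every gene name beginning with NDUFA, NDUFB, NDUFC, NDUFS, NDUFV, UQCR, COX4, COX5, COX6, COX7, COX8 or ATP5, together with SDHA, SDHB, SDHC, SDHD and CYC1, and without the NDUFAF assembly factors. The rule found 62 of the 26761 gene names in the files. Of these, 39 belong by name to complex I, 4 to complex II, 1 to complex III (UQCRH), 1 to complex IV (COX5A) and 17 to complex V, the ATP synthase. Of a list of 79 usual subunits, 18 are not analysed here, and 8 of those belong to complex III and 9 to complex IV. Values given below for complexes III and IV are therefore values of a single gene each. NDUFA4, since assigned to complex IV, is counted with complex I by its name.

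Respiratory complexes I and II pass electrons from NADH and succinate to ubiquinone, complex III passes them on to cytochrome c, and complex IV reduces oxygen. Complexes I, III and IV pump protons across the inner mitochondrial membrane, and ATP synthase uses the resulting gradient to make ATP. A small set of subunits is encoded in mitochondrial DNA, so each complex except complex II is built from transcripts of both genomes. In lymphocytes this machinery is known to be expanded when resting cells are activated and begin to divide.

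Peripheral blood mononuclear cells of sheep (Ovis aries) were measured without culture by droplet 3′ single-cell RNA sequencing, in which each molecule carries a cell barcode and a unique molecular identifier (UMI). The 1 library of the untreated group came from animals given nothing, and the 1 library of the A.G.-ES group from animals with A.G.-ES, in the series title a suture eluting astragaloside IV and glycyrrhizic acid, embedded on both sides at the acupoint ST36. The title speaks of weaned lambs and of the balance of Treg and Th17 cells. The labels give neither the age, strain or sex of the animals, nor the time from embedding to bleeding, nor the number of animals behind a library.

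Filtering left 7565 cells with 50525594 UMIs in the untreated library and 8737 cells with 39286470 UMIs in the A.G.-ES library, at a median of 5130 and 4105 UMIs per cell. A single library per group allows no test between the treatments, no difference has a replicate check, and differences between animals or libraries cannot be told apart from the treatment. All intervals are 95% intervals that cover counting error only. The libraries shared 61 barcodes. The 85 Y-linked genes together had 40447 untreated UMIs but only 754 with A.G.-ES, a difference the labels do not account for.

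Levels were compared within 6 classes of cells, each gated on a few marker genes. The untreated and A.G.-ES libraries gave 3118 and 1579 B cells, 360 and 1415 CD4 T cells, 177 and 555 CD8B T cells, 1115 and 601 T cells with SOX13 and RHEX, 35 and 55 NK cells gated on NCR1, and 171 and 247 monocytes. No gate took 34.2% and 49.0% of the cells. Marker genes held out of the gates were highest in their own class in both libraries for B cells, CD4 T cells and monocytes. The held-out NK genes were higher in CD8B T cells (7447 and 6240 CPM, UMIs per 1e+06 UMIs) than in the NCR1 gate (6476 and 3350 CPM), the held-out CD8 T genes were higher in the NCR1 gate than in CD8B T cells in the untreated library (1996 against 1752 CPM), and the held-out genes of the SOX13/RHEX gate were higher in CD4 T cells than in that gate in the untreated library (1864 against 1680 CPM). These classes are therefore called by their gates.

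The 62 genes together took a smaller share of the transcriptome in B cells of the A.G.-ES library and a larger share in SOX13/RHEX T cells and monocytes. In B cells their summed level was 7599 CPM untreated and 6145 CPM with A.G.-ES, a ratio of 0.809 (0.801 to 0.816). CD4 T cells stood at 6450 and 6355 CPM, a ratio of 0.985 (0.966 to 1.00), whose interval reaches equality. CD8B T cells stood at 7464 and 6581 CPM, a ratio of 0.882 (0.857 to 0.907). SOX13/RHEX T cells went the other way, at 7147 and 7757 CPM and a ratio of 1.09 (1.07 to 1.10).

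Monocytes had the lowest summed level of the untreated classes, 4490 CPM, and stood at 5476 CPM with A.G.-ES, a ratio of 1.22 (1.17 to 1.27). The few NK cells stood at 5875 and 3716 CPM, a ratio of 0.632 (0.562 to 0.711). B cells thus had the highest summed level of the 6 classes in the untreated library, with an interval that overlaps that of CD8B T cells, and ranked below all 3 T-cell classes in the A.G.-ES library. Over all kept cells the ratio was 0.837 (0.832 to 0.841), a value that also moves with the mix of classes. That value includes the cells in no gate, with 12932629 untreated and 16484358 A.G.-ES UMIs. Their own summed level was not computed, so the ranks here hold among the gated classes only. Whether the ratios differ between classes was not tested, since each rests on the same pair of libraries.

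**Figure D1:**
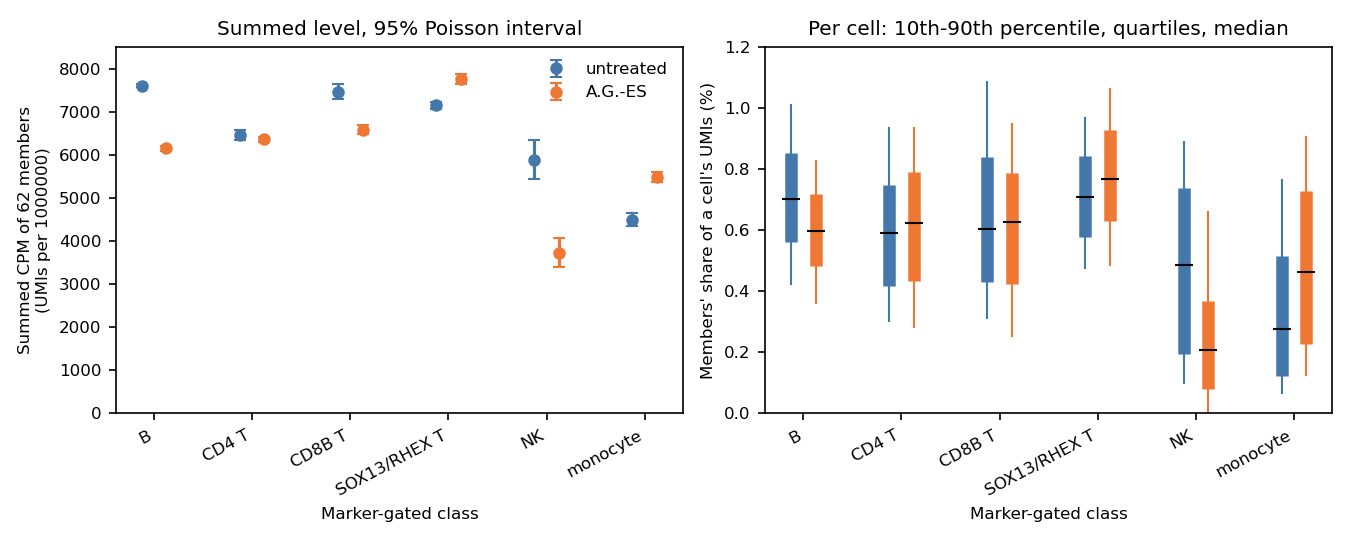
Summed level of the 62 nuclear oxidative phosphorylation genes in each gated class, as CPM per library with the 95% counting interval (left), and as the share of each cell's UMIs in percent, with the median, quartiles and 10th to 90th percentile of cells (right). On the left, the A.G.-ES point lies below the untreated point in B cells (6145 against 7599 CPM) and above it in monocytes (5476 against 4490 CPM), and the points of CD4 T cells nearly coincide.

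Single cells showed the same order in B cells and monocytes. The median B cell gave the 62 genes 0.702% of its UMIs when untreated and 0.598% with A.G.-ES, and the median monocyte 0.276% and 0.461%. The median CD4 T cell gave 0.589% and 0.624%, and the median CD8B T cell 0.603% and 0.628%, so in CD8B T cells the median cell and the summed counts point in opposite directions.

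Several properties of the cells moved together with these ratios, and their part in them was not tested. The median B cell held 8798.5 UMIs untreated and 5149 with A.G.-ES, and the 12 genes of a cell-cycle list stood at 404 and 70.7 CPM in B cells. Cells with plasmablast or cell-cycle transcripts made up 63.2% of the untreated B cells and 34.7% of the B cells with A.G.-ES. Without those cells the B-cell ratio was 0.908, and it was 0.919 among B cells of 4000 to 8000 UMIs and 0.819 among B cells with a UMI of JCHAIN, the immunoglobulin joining chain. In CD8B T cells the cell-cycle list stood at 1449 and 182 CPM, and the ratio turned to 1.05 without the plasmablast and cycling cells, to 1.06 among cells of 4000 to 8000 UMIs and to 1.11 under scaling by trimmed means (TMM). That scaling raises every log2 ratio by 0.33 in CD8B T cells, 0.21 in CD4 T cells and 0.10 in SOX13/RHEX T cells.

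In CD4 T cells the cell-cycle list stood at 470 and 145 CPM, and the ratio lay between 0.954 and 1.14 over the alternatives, so its direction is not settled. In monocytes, cytosolic ribosomal protein genes took 9.32% of untreated and 12.7% of A.G.-ES UMIs, and among cells with at least 10% of UMIs from those genes the ratio was 1.04. The median monocyte held 4127 and 6445 UMIs, and among monocytes of 4000 to 8000 UMIs the ratio was 1.06 (0.994 to 1.12). In the NCR1 gate the ribosomal share was 16.1% and 11.9% and the mitochondrially encoded share 1.77% and 3.17%. The ratio there was 0.919 among cells with at least 10% ribosomal UMIs, on only 19 untreated and 13 A.G.-ES cells. Among cells of 4000 to 8000 UMIs it was 0.911, on only 8 and 7 cells. No interval was computed for either value. The ratio in SOX13/RHEX T cells lay between 1.08 and 1.18 over all alternatives run. In that class the cell-cycle list stood at 35.0 and 35.1 CPM, but other marker lists differed. The held-out CD8 T genes stood at 65.2 and 278 CPM there, the held-out B genes at 600 and 435 CPM and a list of dendritic-cell genes at 159 and 36.6 CPM. The part of these differences in the ratio was not tested.

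A gene was counted as higher or lower when its CPM differed at least 1.5-fold between the libraries and it had at least 20 UMIs in the class over both. In B cells all 62 genes had that many UMIs, 58 had a log2 ratio below 0, 11 were lower and 1 was higher. Of all 12272 genes with at least 20 UMIs in B cells, 18.0% were lower and 16.0% higher, so the 11 of 62 (17.7%) are near the background. Most of the 62 genes had a moderate difference in the same direction: their median log2 ratio was −0.43, against −0.09 for all genes counted. With median-of-ratios scaling 6 were lower in place of 11. Without plasmablast and cycling cells 3 of the 11 stayed past the fold, SDHB, NDUFS8 and NDUFB1, and among cells of 4000 to 8000 UMIs 3 did, SDHB, NDUFV1 and NDUFV2. The share of all genes past the fold was not recounted under these settings. In no class was the background matched to the module in UMIs per gene. Genes with fewer UMIs have more counting error, and its part in these shares was not tested.

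CD4 T cells had 2 lower and 0 higher of the 61 genes with enough UMIs, against 18.1% lower and 10.4% higher of all genes. The median log2 ratio of the 61 genes was −0.18 there, against −0.16 for all genes. CD8B T cells had 12 lower and 0 higher of 61 (19.7% lower), against 29.8% lower and 9.41% higher of all genes, with medians of −0.36 and −0.30. Under TMM and under median-of-ratios scaling 4 were lower there in place of 12. Such scaling moves all genes alike, and the share of all genes was not recounted under it. In both CD4 T and CD8B T cells the median thus lay close to that of all genes, while a smaller share of the module passed the fold. In SOX13/RHEX T cells 0 of 61 passed the fold in either direction, against 9.67% higher and 18.1% lower of all genes, and the median was 0.08 against −0.13.

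Monocytes had 11 higher (18.0%) and 1 lower of 61, against 14.2% higher and 15.8% lower of all genes, with medians of 0.30 and −0.04. The count of 11 became 5, of 42 genes, with a minimum of 100 UMIs and 23 with equal weight for each cell. The share of all genes was not recounted under either choice. In the NCR1 gate only 19 of the 62 genes had enough UMIs, and 9 of those were lower and 0 higher, against 17.1% and 21.6% of all genes. Over all kept cells 7 of 62 were lower and 0 higher, against 17.7% lower and 18.6% higher of all genes. No gene was lower in 3 or more of the 6 classes, none was higher in 3 or more, and 28 of the 62 passed the fold in no class. Only 19 of the 62 had at least 20 UMIs in all 6 classes. The same counts were not made for all genes, so they are not set against a background.

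**Figure D2:**
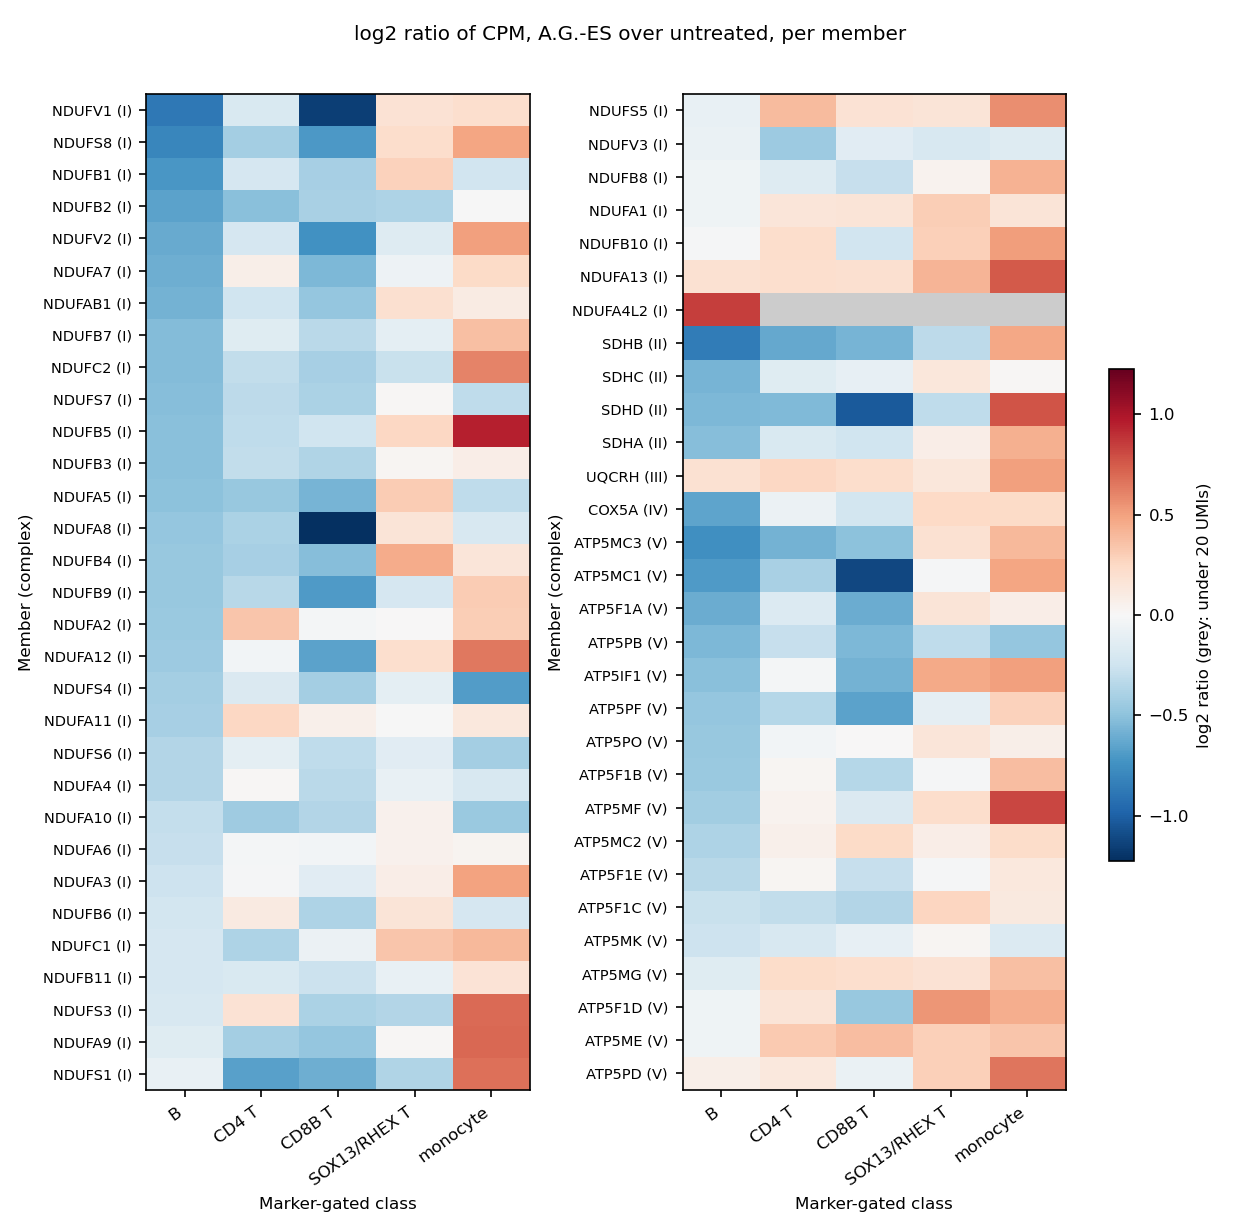
Log2 ratio of CPM, A.G.-ES over untreated, for 61 of the 62 genes (rows, grouped by complex) in each gated class except NK (columns), with grey cells under 20 UMIs. Most of the B-cell column is below 0 and most of the monocyte column above 0.

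Complex I, the NADH dehydrogenase, had a ratio of 0.803 in B cells, 0.935 in CD4 T cells, 0.817 in CD8B T cells, 1.06 in SOX13/RHEX T cells and 1.17 in monocytes, and with TMM the CD4 T and CD8B T ratios turned to 1.08 and 1.03. Its 7 nuclear core subunits, which carry the electron path, stood at 373 and 249 CPM in B cells, a ratio of 0.667 (0.637 to 0.698). The 32 other genes of complex I by name stood at 2565 and 2112 CPM in B cells, a ratio of 0.823 (0.810 to 0.837). They are called accessory here, for the subunits that surround the core, but include NDUFA4, since assigned to complex IV, and its relative NDUFA4L2. In CD8B T cells the core and accessory ratios were 0.621 and 0.844, and in CD4 T cells 0.817 and 0.950. In each of these 3 classes the core subunits had the lower ratio. In monocytes the order was the other way, at 1.33 (1.13 to 1.56) for the core and 1.15 (1.08 to 1.23) for the accessory subunits, and in SOX13/RHEX T cells the ratios were 0.991 and 1.07. Whether core and accessory differ beyond the spread between animals was not tested.

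Several core subunits were among the lowest genes of the module in B cells. NDUFV1, the flavoprotein that binds NADH, stood at 24.0 CPM untreated and 13.1 CPM with A.G.-ES in B cells (704 and 119 UMIs), a ratio of 0.546 (0.446 to 0.664) that became 0.709 without plasmablast and cycling cells. NDUFS8, which carries iron-sulfur clusters near the quinone site, stood at 139 and 79.8 CPM, a ratio of 0.573 (0.529 to 0.620). Among B cells of 4000 to 8000 UMIs NDUFS8 fell short of the fold. NDUFV2, the iron-sulfur partner of NDUFV1, stood at 108 and 70.5 CPM in B cells, a ratio of 0.651, or 0.706 without those cells. The same 3 genes were also lower in CD8B T cells, with log2 ratios of −1.16 for NDUFV1, −0.71 for NDUFS8 and −0.74 for NDUFV2. With TMM the CD8B T values of NDUFS8 and NDUFV2 were −0.37 and −0.41, short of the fold, and that of NDUFS8 was 0.051 among cells of 4000 to 8000 UMIs. In SOX13/RHEX T cells none of them passed the fold, and their log2 ratios were 0.17, 0.21 and −0.15.

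NDUFS1, the large iron-sulfur subunit of the core, had few UMIs. It was lower in CD4 T cells on 31 and 68 UMIs, a ratio of 0.630 (0.406 to 0.997), and stood at 8.46 and 7.94 CPM in B cells. With the stricter gates, which left 128 and 606 CD4 T cells, the log2 ratio of NDUFS1 in CD4 T cells turned to 0.41. The NDUFV1 value in CD8B T cells turned too, to 0.72, with 39 and 104 cells left.

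Among the accessory subunits, NDUFB1 stood at 84.1 and 51.2 CPM in B cells, a ratio of 0.608 (0.550 to 0.672), and NDUFB2 at 109 and 69.4 CPM, a ratio of 0.634. Both belong to the membrane arm, and neither stayed past the fold among B cells of 4000 to 8000 UMIs. NDUFB2 was also the lowest of the genes with at least 100 UMIs in SOX13/RHEX T cells, with 115 and 89.0 CPM and a log2 ratio of −0.38. At the other end in B cells were NDUFB10, at 102 and 101 CPM, and NDUFA1, at 164 and 159 CPM, with intervals that hold equality. NDUFS5 was the highest of the module in CD4 T cells, at 119 and 156 CPM and a ratio of 1.31 (1.14 to 1.52), followed by NDUFA2 at 58.9 and 74.3 CPM and a ratio of 1.26 (1.03 to 1.56). NDUFA2 overlaps the gene model of TMCO6, and whether reads were counted by strand is not given in the sources used here.

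NDUFA13, also known as GRIM-19, a complex I subunit also known for roles in cell death and STAT3 signalling, varied between classes alike in both libraries. It stood at 218 and 247 CPM in B cells and at 310 and 414 CPM in SOX13/RHEX T cells, but at 61.4 and 70.9 CPM in CD4 T cells, 76.4 and 87.5 CPM in CD8B T cells and 40.5 and 68.1 CPM in monocytes. The B-cell level was 3.54-fold that of CD4 T cells in the untreated library and 3.49-fold in the A.G.-ES library. The SOX13/RHEX T level was 5.05-fold (4.19 to 6.13) and 5.85-fold (5.25 to 6.52) that of CD4 T cells. Both libraries thus placed the gene high in the same pair of classes.

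Such differences between classes were scarcer in the module than among all genes with at least 20 UMIs. The module was not matched to those genes in UMIs per gene, and the part of counting error in these shares was not tested. Against CD4 T cells, B cells were at least 1.5-fold higher in both libraries for 3 of 62 genes (NDUFA13, ATP5MC1 and NDUFA4L2) and lower for 0, against 15.5% higher and 18.5% lower of all genes. NDUFA4L2 had only 1 and 0 UMIs in CD4 T cells and its untreated B over CD4 T quotient has an interval of 0.848 to 195, so NDUFA13 and ATP5MC1 are the ones measured in both classes. SOX13/RHEX T cells were higher for 1 of 61 (NDUFA13) and lower for 1 (NDUFS1), against 5.78% and 14.9%. CD8B T cells were higher for 1 (NDUFB6) and lower for 1 (NDUFS1), against 5.65% and 6.29%. Monocytes were higher for 0 and lower for 9, against 19.2% and 38.9%, and UQCRH, COX5A, NDUFA4 and ATP5MG were among the 9.

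The whole-library ratio of NDUFA13 went against its ratios within 5 of the gated classes. It was above 1 in B cells (1.14), CD4 T cells (1.15), CD8B T cells (1.14), SOX13/RHEX T cells (1.34) and monocytes (1.68, or 1.25 at 4000 to 8000 UMIs), yet over all kept cells it stood at 213 and 169 CPM, a ratio of 0.793 (0.769 to 0.817). The intervals of CD4 T and CD8B T cells hold equality. B cells gave 59.2% of its untreated UMIs and 33.8% of its UMIs with A.G.-ES. The NCR1 gate held only 6 and 5 UMIs of the gene. Cells in no gate, 34.2% of untreated and 49.0% of A.G.-ES cells, also enter the whole-library ratio. The ratio of NDUFA13 among them was not computed.

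NDUFA4, named for complex I and since assigned to complex IV, stood at 240 and 187 CPM in B cells (ratio 0.782, 0.741 to 0.824) and at 177 and 179 CPM in CD4 T cells. Its relative NDUFA4L2, known as a hypoxia-induced form, was counted mainly in B cells. It had 72 untreated and 40 A.G.-ES UMIs in B cells (2.46 and 4.41 CPM, ratio 1.80, 1.19 to 2.68), 1 and 0 in CD4 T cells, and 0 in CD8B T cells, SOX13/RHEX T cells and monocytes of both libraries. The untreated CD8B T cells and monocytes held only 968295 and 813862 UMIs in all, so a level like that of untreated B cells was not detectable there. The B-cell ratio was 1.06 among cells of 4000 to 8000 UMIs, 1.33 without cells that hold JCHAIN, MZB1, DERL3, TNFRSF17 or cycling transcripts and 1.38 with equal weight for each cell, short of 1.5-fold in each. NDUFA4L2 overlaps 4 other gene models in the RefSeq annotation, R3HDM2, STAC3 and SHMT2 among them, so these UMIs cannot be assigned to it with certainty.

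Complex II, succinate dehydrogenase, is the enzyme that the respiratory chain shares with the citric acid cycle, and all its subunits are nuclear. It had the lowest ratio of the complexes in B cells, 0.606 (0.574 to 0.639), with summed levels of 296 and 179 CPM. The ratio was 0.735 (0.660 to 0.819) in CD4 T cells, 0.701 (0.596 to 0.826) in CD8B T cells and 0.889 in SOX13/RHEX T cells, but 1.35 in monocytes. In B cells it lay between 0.599 and 0.618 in the alternatives run for it, which included those without cycling and plasmablast-marker cells and of cells with 4000 to 8000 UMIs. In CD4 T cells it lay between 0.717 and 0.848 and in CD8B T cells between 0.681 and 0.884.

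SDHB, the iron-sulfur subunit, carried most of the complex II counts. It stood at 176 CPM untreated and 97.6 CPM with A.G.-ES in B cells (5165 and 885 UMIs), a ratio of 0.554 (0.515 to 0.595), and at 117 and 75.9 CPM in CD4 T cells, a ratio of 0.647 (0.554 to 0.758), or 0.747 with TMM. It was the lowest gene with at least 100 UMIs in CD4 T cells, and stood at 115 and 77.4 CPM in CD8B T cells and at 97.9 and 78.5 CPM in SOX13/RHEX T cells. In monocytes it stood at 87.2 and 121 CPM, a ratio of 1.39 (1.06 to 1.85). The untreated level was thus the higher one in the 4 lymphocyte classes named here and the lower one in monocytes.

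The other subunits of complex II followed in B cells without passing the fold. SDHA, the flavoprotein that oxidises succinate, stood at 30.0 and 20.9 CPM in B cells (ratio 0.698, 0.594 to 0.818). The membrane anchors SDHC and SDHD stood at 46.8 and 31.4 CPM (ratio 0.672) and at 42.5 and 29.0 CPM (ratio 0.682). SDHD was lower in CD8B T cells, at 55.8 and 27.3 CPM (54 and 65 UMIs, ratio 0.490, 0.336 to 0.717, or 0.849 with the stricter gates), and higher in monocytes, at 31.9 and 54.6 CPM (26 and 89 UMIs, ratio 1.71, 1.09 to 2.76, or 1.45 with at least 10% ribosomal UMIs). SDHA and SDHC in CD4 T cells had ratios of 0.879 and 0.904, with intervals that hold equality. SDHC and SDHD overlap other gene models.

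**Figure D3:**
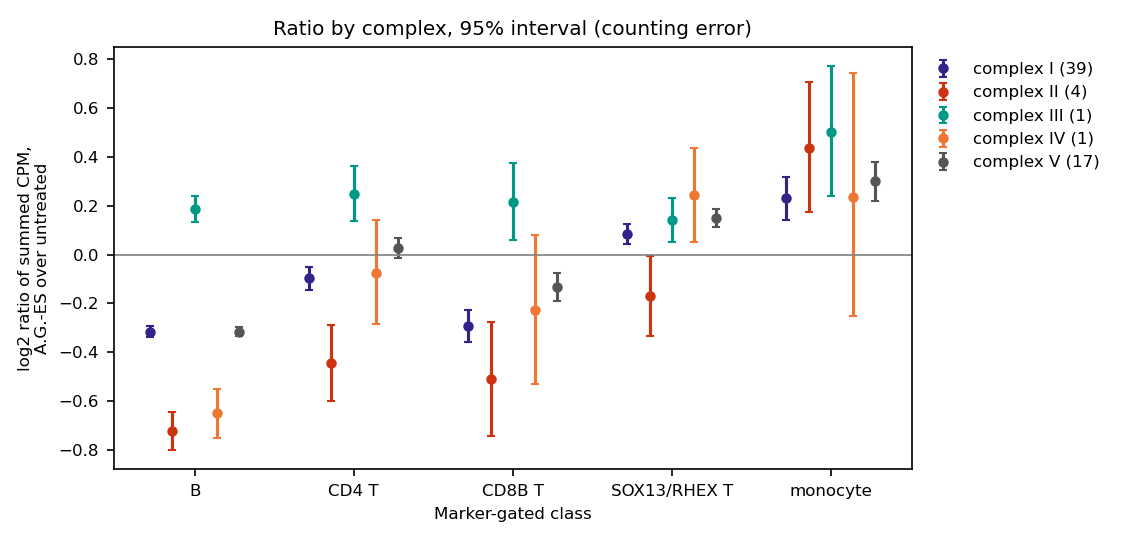
Log2 ratio of summed CPM, A.G.-ES over untreated, for each complex in each gated class except NK, with bars for the 95% counting interval; complexes III and IV are 1 gene each. In B cells complex II is lowest at −0.72 and UQCRH of complex III highest at 0.19, and in monocytes the 5 values lie between 0.23 and 0.50.

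UQCRH, the hinge protein of complex III beside cytochrome c1, had a ratio above 1 in B, CD4 T and CD8B T cells, where most of the module was below 1. It stood at 376 and 428 CPM in B cells (ratio 1.14, 1.10 to 1.18), 393 and 468 CPM in CD4 T cells (1.19, 1.10 to 1.29), and 453 and 527 CPM in CD8B T cells (1.16, 1.04 to 1.30). In SOX13/RHEX T cells it stood at 563 and 621 CPM (1.10, 1.03 to 1.17) and in monocytes at 195 and 277 CPM (1.42, 1.18 to 1.71). The A.G.-ES level was the higher one in these 5 classes, though below the 1.5-fold mark in each, and the lower one in the NCR1 gate (log2 ratio −0.85). UQCRH overlaps the gene model of LRRC41.

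COX5A, the complex IV subunit that faces the mitochondrial matrix, stood at 166 and 106 CPM in B cells, a ratio of 0.637 (0.594 to 0.683), and was 1 of the 11 lower genes there, with 0.747 without plasmablast and cycling cells. In CD4 T cells it stood at 120 and 114 CPM (0.949, 0.820 to 1.10, turning to 1.10 with TMM) and in SOX13/RHEX T cells at 120 and 142 CPM (1.19, 1.04 to 1.35). Untreated B cells had 1.38-fold the level of untreated CD4 T cells, and A.G.-ES B cells 0.925-fold that of A.G.-ES CD4 T cells.

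ATP synthase had ratios of 0.803 in B cells, 1.02 in CD4 T cells, 0.911 in CD8B T cells, 1.11 in SOX13/RHEX T cells and 1.23 in monocytes, and with TMM the CD8B T ratio turned to 1.15. In B cells its parts differed in size of ratio. The c ring, the rotor that protons turn, had a ratio of 0.697 (0.674 to 0.721), the catalytic F1 head and stalk 0.776 (0.758 to 0.795), the peripheral stalk 0.815 (0.789 to 0.842) and the membrane accessory subunits 0.886 (0.867 to 0.906). In CD4 T cells the c ring was at 0.883 (0.816 to 0.955) and the membrane accessory subunits at 1.16 (1.10 to 1.21). The c ring thus had a lower ratio than the membrane accessory subunits in both classes.

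Subunit c is encoded by 3 genes whose mature proteins are known to be identical, so the genes differ in their targeting sequence and regulation. ATP5MC3 stood at 198 and 118 CPM in B cells (ratio 0.593, 0.555 to 0.633) and at 160 and 107 CPM in CD4 T cells (0.670, 0.587 to 0.767). ATP5MC1 stood at 72.3 and 44.8 CPM in B cells (0.619, 0.555 to 0.688) and at 68.2 and 31.5 CPM in CD8B T cells (66 and 75 UMIs, 0.463, 0.328 to 0.654, or 0.765 without plasmablast and cycling cells). In B cells neither ATP5MC3 nor ATP5MC1 stayed past the fold without plasmablast and cycling cells, or among cells of 4000 to 8000 UMIs. ATP5MC2 stood at 379 and 291 CPM in B cells (0.767), at 233 and 244 CPM in CD4 T cells (1.05, 0.943 to 1.16) and at 225 and 264 CPM in CD8B T cells (1.17, 1.00 to 1.37). In CD8B T cells the ratios of ATP5MC1 and ATP5MC2 thus lay on opposite sides of 1. ATP5MC2 and ATP5MC3 overlap uncharacterised gene models, and near-identical copies of these genes may share reads.

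Of the catalytic head, ATP5F1A (subunit alpha) stood at 168 and 110 CPM in B cells (ratio 0.656, 0.612 to 0.702) and at 213 and 139 CPM in CD8B T cells (0.654, 0.548 to 0.782). The CD8B T value of ATP5F1A turned to a log2 ratio of 0.04 without plasmablast and cycling cells, and its B-cell value fell short of the fold without them. ATP5F1E (subunit epsilon) stood at 639 and 505 CPM in B cells (0.790, 0.765 to 0.816) and at 416 and 423 CPM in CD4 T cells (1.02, 0.941 to 1.10). ATP5F1D (subunit delta) was the highest gene of the module in SOX13/RHEX T cells, at 47.9 and 69.9 CPM (1.46, 1.19 to 1.78), and stood at 71.9 and 69.1 CPM in B cells. ATP5IF1, the inhibitor that stops the enzyme from running backwards, stood at 95.3 and 66.7 CPM in B cells (0.700, 0.640 to 0.765) and at 80.2 and 111 CPM in SOX13/RHEX T cells (1.38, 1.18 to 1.62).

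Among the membrane and stalk subunits, ATP5ME stood at 481 and 600 CPM in CD4 T cells (1.25, 1.16 to 1.34), at 433 and 562 CPM in CD8B T cells (1.30, 1.16 to 1.45) and at 417 and 402 CPM in B cells (0.965, 0.929 to 1.00). ATP5MG stood at 444 and 520 CPM in CD4 T cells (1.17, 1.09 to 1.26) and at 494 and 445 CPM in B cells (0.902, 0.870 to 0.934). For both genes the A.G.-ES level was the higher one in the T-cell classes and not in B cells. ATP5PD, of the peripheral stalk, stood at 194 and 204 CPM in B cells (1.05, 0.994 to 1.10) and at 119 and 188 CPM in monocytes (1.58, 1.25 to 2.01). The monocyte ratio was 1.39 without cells flagged by the plasmablast and cell-cycle lists. Those lists flagged 38.6% of untreated and 55.5% of A.G.-ES monocytes. A rule on JCHAIN, MZB1, DERL3, TNFRSF17 and cycling transcripts flagged only 0.585% and 1.21%, so the lists are not specific to plasmablasts and cycling cells among monocytes. ATP5MF was the highest gene with at least 100 UMIs in monocytes, at 118 and 209 CPM (96 and 340 UMIs, 1.77, 1.41 to 2.24), and ATP5PB the lowest there, at 81.1 and 58.3 CPM (0.719, 0.519 to 0.999).

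**Figure D4:**
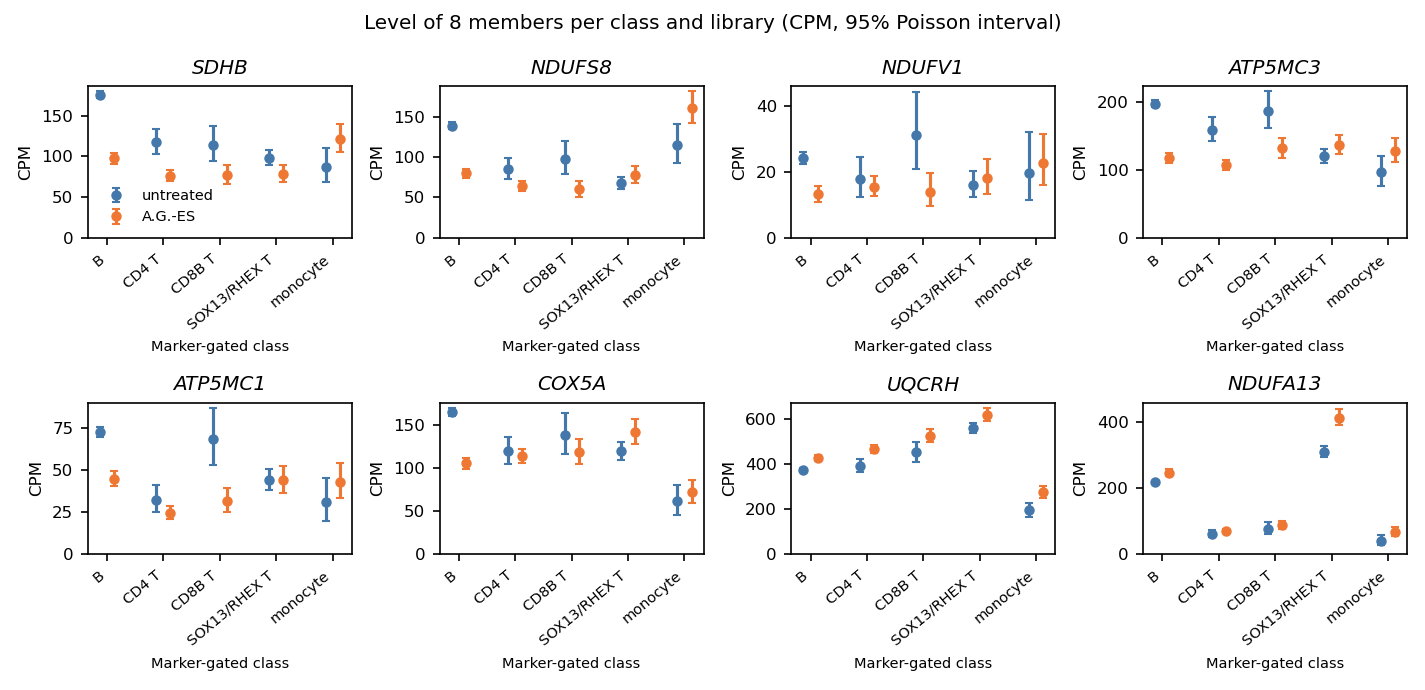
CPM in the untreated and A.G.-ES libraries of 8 subunits in each gated class except NK, with bars for the 95% counting interval. SDHB and ATP5MC3 lie lower with A.G.-ES in B cells and CD4 T cells, UQCRH lies higher in both, and NDUFA13 stands apart by class, near 218 to 414 CPM in B cells and SOX13/RHEX T cells and at 40.5 to 87.5 CPM in CD4 T cells, CD8B T cells and monocytes.

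Transcripts of the mitochondrial genome stood higher relative to the nuclear genes with A.G.-ES. The 13 mitochondrially encoded subunits had 1.77 UMIs for each UMI of the 62 nuclear genes in untreated B cells and 2.80 in A.G.-ES B cells, a 1.58-fold difference. In CD4 T cells the quotient was 2.16 and 3.42, also 1.58-fold, and in SOX13/RHEX T cells 1.58 and 2.64. It was 5.68 and 6.35 in monocytes, 1.12-fold. In all of these classes it was higher in the A.G.-ES library. The share of mitochondrially encoded UMIs, which is also a measure of cell quality, was 1.37% over untreated and 2.20% over A.G.-ES cells, and its part in the quotient was not tested.

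Other genes of the pathway were read from lists chosen with earlier results of these data known. In B cells, against 16.0% higher and 18.0% lower of all genes, 1 of 30 assembly factors was higher and 8 were lower, with a median log2 ratio of −0.22. Of the 17 citric acid cycle genes 0 were higher and 2 lower (median −0.32), of 21 protein import genes 0 and 7 (−0.26), and of 74 mitochondrial ribosomal protein genes 1 and 19 (−0.33). The 31 proteasome genes, which are not mitochondrial, had 1 higher and 6 lower and a median of −0.41, close to the −0.43 of the respiratory chain genes. The 76 cytosolic ribosomal protein genes had a median of −0.02. A list outside the mitochondrion thus had a median of like size.

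Carriers that serve the respiratory chain had 0 higher and 8 lower of 19 in B cells. The examples that follow were chosen after their values were seen. SLC25A5, an exchanger of ADP and ATP across the inner membrane, stood at 23.2 and 8.16 CPM in B cells (log2 ratio −1.51), 10.6 and 4.48 CPM in CD4 T cells (−1.24) and had a log2 ratio of −1.71 in CD8B T cells on 20 and 15 UMIs. VDAC1, the outer membrane channel, stood at 39.3 and 19.8 CPM in B cells (−0.99) and at 30.2 and 29.9 CPM in CD4 T cells. Of the 17 regulators of mitochondrial biogenesis 1 was higher and 2 were lower in B cells, and PPARGC1B, a coactivator of respiratory genes, stood at 15.4 and 4.08 CPM (450 and 37 UMIs, −1.91).

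Assembly factors of complex I included some that went the other way. In CD4 T cells 4 of 29 assembly factors were higher and 4 lower, against 10.4% and 18.1% of all genes. Their median log2 ratio there was −0.04. NDUFAF2, a chaperone of late complex I assembly, stood at 8.56 and 42.9 CPM in CD4 T cells on 17 and 297 UMIs, a ratio of 5.02 (3.08 to 8.73), but its ratio was 1.25 in B cells and 0.882 in CD8B T cells, where the interval holds equality. ACAD9, which acts in complex I assembly, stood at 14.4 and 23.2 CPM in B cells (ratio 1.61, 1.36 to 1.90) and at 8.56 and 23.1 CPM in CD4 T cells (2.70, 1.64 to 4.76). FOXRED1, another complex I assembly factor, stood at 7.81 and 3.31 CPM in B cells (0.423).

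**Figure D5:**
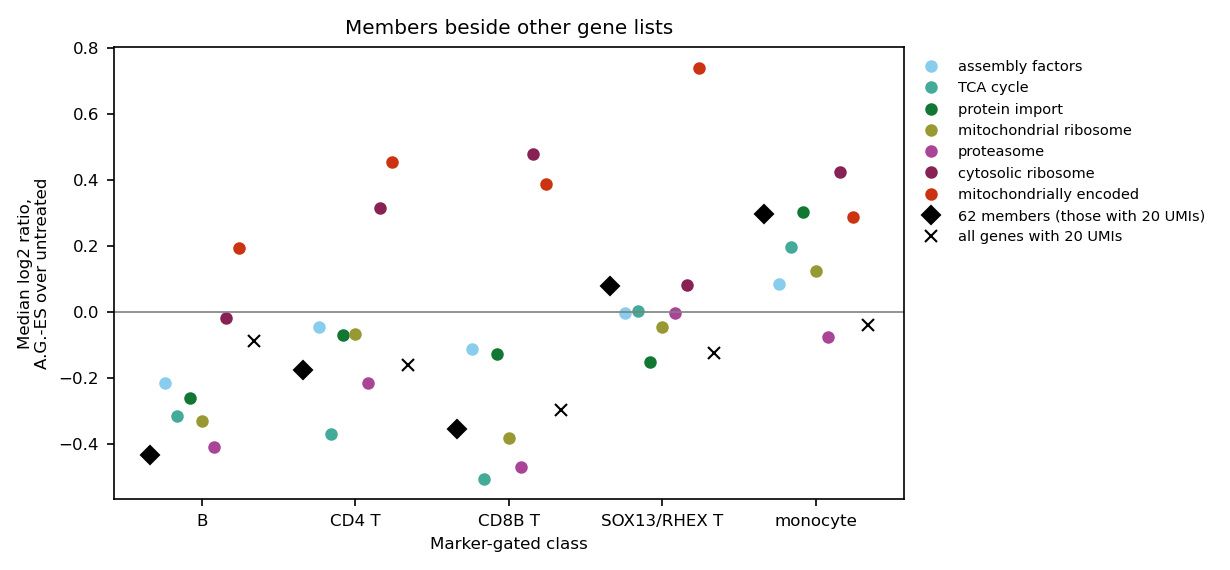
Median log2 ratio of CPM, A.G.-ES over untreated, of the 62 nuclear oxidative phosphorylation genes, of related lists and of all genes with at least 20 UMIs, in each gated class except NK. In B cells the respiratory chain genes (−0.43) and the proteasome (−0.41) are lowest, and the mitochondrially encoded genes lie above 0.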

How the data were processed

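Blood cells were separated on a density gradient and sequenced with a droplet 3′ kit, per the labels' protocols. The authors deposited raw UMI counts per gene and barcode for each of the 2 libraries (55861418 and 44485442 UMIs). Aligner, counter, cell caller and build were not given in the sources used here, and the number of unused columns with values of other samples was 0.

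Barcodes with under 500 UMIs, under 200 genes or over 15% mitochondrially encoded UMIs were removed (158 untreated, 186 A.G.-ES). Scrublet (scanpy 1.11.5) ranked likely doublets, and the top 0.8% per 1000 cells were removed (523 and 715), where its automatic threshold would have removed 256 and 195. B cells had at least 3 UMIs over 5 B genes and none of CD3D or CD3E, T cells at least 2 over CD3D and CD3E, and monocytes at least 3 over monocyte genes that included CD14, CSF1R and VCAN. T cells were divided by CD4, CD8B, and SOX13 plus RHEX (at least 2), and NK cells were taken by NCR1. CD4 T cells held no CD8B, CD8B T cells no CD4, SOX13/RHEX T cells neither, and NK cells none of CD3D, CD3E, CD4 and CD8B. B and monocyte genes were limited to 1 UMI in other classes, SOX13 plus RHEX in CD4 T and CD8B T cells, and CD3D plus CD3E in monocytes. The B gate set no limit on CD4, CD8B or NCR1, and B cells held 12 untreated and 378 A.G.-ES UMIs of CD8B.

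UMIs were summed per library and class and scaled to CPM. CPM carry exact Poisson intervals and ratios exact conditional binomial intervals (scipy 1.17.1). On simulated B-cell counts of 12272 genes, intervals covered 95.8% of true ratios. The 1.5-fold rule found 98 of 100 genes raised and 92 of 100 lowered 2-fold. These values bear on counting error only, the error the intervals are built on. Spread between cells, animals or libraries was not tested by the simulation. It therefore does not show how reliable the fold calls in these data are. Alternatives changed the scaling (edgeR 4.0.16 for TMM), the gates, filters, depth and cell types. The members, lists and rules were chosen with earlier results of these data known. Named genes were those of highest and lowest ratio with at least 100 UMIs per class, the most counted of each complex, all complex II genes and NDUFA4L2. Those extremes were 6 each way in B and CD4 T cells and 3 in CD8B T cells, SOX13/RHEX T cells and monocytes. None came from the NCR1 gate. Others are named to show a complex or a fold call. A member that this rule names is not reported here by itself, and all sums, medians and counts still hold it. RefSeq genes of ARS-UI_Ramb_v3.0 matched all 62 names and gave overlapping gene models for 15.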

Additional observations from a re-analysis of the deposited data

Results flagged for a closer look

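The summed level of the nuclear oxidative phosphorylation genes had A.G.-ES over untreated ratios on both sides of 1 among the gated classes. B cells (0.809), CD8B T cells (0.882) and NCR1-gated NK cells (0.632) were below 1, and SOX13/RHEX T cells (1.09) and monocytes (1.22) were above it, each with a counting interval that leaves out 1. The difference between the classes was not tested, because each ratio compares the same pair of libraries. The CD8B T value turns to above 1 under 5 of its 11 alternatives. The monocyte ratio was 1.06 (0.994 to 1.12) among cells of 4000 to 8000 UMIs, an interval that holds 1, with a median depth of 4127 UMIs per untreated and 6445 per A.G.-ES monocyte over all monocytes. The NK ratio was 0.911 among cells of 4000 to 8000 UMIs (8 untreated and 7 A.G.-ES cells) and 0.919 with at least 10% ribosomal UMIs (19 and 13 cells). The part of depth and ribosomal share in these values was not tested.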

How the results depend on the processing

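No paired analysis was possible because each group has a single library. Values here are log2 ratios, A.G.-ES over untreated, of the summed genes unless a gene or complex is named, and the choices of at least 10% ribosomal UMIs, of cells without JCHAIN, MZB1, DERL3, TNFRSF17 and cycling transcripts, and of 4000 to 8000 UMIs were added after the data were seen. With TMM the values were −0.23 for all cells, −0.28 in B, 0.18 in CD4 T, 0.15 in CD8B T, 0.22 in SOX13/RHEX T and 0.37 in monocytes, with complex II at −0.24 and −0.18 and complex III at 0.46 and 0.55 in CD4 T and CD8B T, and 4 CD8B T genes lower. With median-of-ratios factors they were −0.21 for all cells, −0.22 in B, 0.14 in CD4 T, 0.11 in CD8B T and 0.24 in SOX13/RHEX T, with 6 genes lower in B and 4 in CD8B T. Totals without ribosomal, mitochondrially encoded and haemoglobin genes gave −0.29 in B, 0.083 in CD4 T, −0.032 in CD8B T, 0.17 in SOX13/RHEX T and 0.36 in monocytes. Equal weight per cell gave −0.24 for all cells, −0.26 in B, 0.042 in CD4 T, −0.12 in CD8B T, −0.85 in NK and 0.47 in monocytes, with complex III in B at 0.24 and 23 monocyte genes higher. A minimum of 100 UMIs left 5 of 42 monocyte genes higher, since fewer genes were counted. The share of all genes past the fold was not recounted under any alternative. With doublets kept, all cells gave −0.25.

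Stricter gates gave −0.067 in CD4 T and −0.056 in CD8B T, complex III in CD8B T at 0.40, and turned NDUFS1 in CD4 T (0.41) and NDUFV1 (0.72) in CD8B T. Without plasmablast and cycling cells the values were −0.090 for all cells, −0.14 in B, 0.030 in CD4 T and 0.074 in CD8B T, and ATP5F1A in CD8B T (0.038) and NDUFS1 (−0.55) and NDUFS3 (−0.97) in monocytes turned. The added choice on JCHAIN and cycling cells gave −0.094, −0.15, 0.010 and 0.064 in the same order, complex III in B at 0.31 and ATP5F1A in CD8B T at 0.11. It left out 0.585% of untreated and 1.21% of A.G.-ES monocytes, where the plasmablast and cycling choice left out 38.6% and 55.5%. At 4000 to 8000 UMIs the values were −0.030 for all cells, −0.12 in B, 0.023 in CD4 T, 0.080 in CD8B T, 0.16 in SOX13/RHEX T, −0.13 in NK and 0.078 in monocytes, with complex III at 0.29 in B and 0.48 in CD8B T, and NDUFS8 in CD8B T (0.051) and NDUFA12 and NDUFS3 in monocytes (both −0.056) turned. With at least 10% ribosomal UMIs they were −0.19 for all cells, −0.24 in CD8B T, −0.12 in NK and 0.058 in monocytes. The cause of these changes was not tested. The sign held in all alternatives run for B, SOX13/RHEX T, NK and monocytes, and for complexes II and III in B, CD4 T and CD8B T. Depth limits single genes in NK cells, where 43 of 62 had under 20 UMIs. The NK values at 4000 to 8000 UMIs rest on 8 and 7 cells, and those with at least 10% ribosomal UMIs on 19 and 13.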
